A study of Mus musculus with 8 samples.

Results

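The heat shock chaperones described here are 10 genes: Hsph1, Hspa1a, Hspa1b, Hspa8, Hspb1, Hspe1, Dnajb1, Dnaja1, Dnaja4 and Bag3. They are 10 of the 17326 genes with a complete set of counts, and they were chosen by their counts in endothelium, as chaperones driven by the heat shock factor HSF1, and related ones, whose list was lower in the knockout. The endothelial genotype difference of these genes is therefore a description, given with no test. All 10 passed the filter on low counts. RNA sequencing of sorted mouse glomerular cells gave 8 libraries in 4 groups of 2: endothelium and podocytes, each from EMCN+/+ (wild type) and EMCN-/- (knockout) kidneys. Emcn encodes endomucin, a sialomucin of the endothelial surface layer. The labels give no treatment, age, sex or strain, no sort gates, no design of the knockout allele and no word on pooling of animals. They do not say whether replicates 2 and 3 came from separate animals, so p-values measure only the spread between these libraries, which may be technical.

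Heat shock proteins keep other proteins folded, and the inducible ones are switched on together when unfolded protein releases the transcription factor HSF1, which binds repeated GAA units in their promoters. HSP70 proteins (Hspa1a and Hspa1b, inducible, and Hspa8, made in all cells) hold unfolded stretches of a client. J-domain proteins (Dnajb1, Dnaja1 and Dnaja4) bring clients and start the ATP cycle, while Hsph1 (HSP110) and Bag3 exchange the nucleotide that ends it. Hspb1 (HSP27) is a small chaperone that holds aggregating proteins and binds actin, and Hspe1 (HSP10) is the lid of the mitochondrial Hspd1 chamber. These genes are also known to be induced when tissue is digested to single cells.

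The sequences upstream of the members are shown for the heat shock motif. Genes driven by HSF1 were chosen as members, so motif counts in them describe the choice and are no separate finding. RefSeq (GRCm38.p6) gave windows of 250 bases before to 50 bases after a transcript start for 9 of the 10 members, in 14 windows, and none was used for Hspa8. Hsph1, Dnajb1 and Dnaja4 have more than 1 window, as does Dnaja1, and a member counts as holding a motif if any window does. They were searched on both strands for 2 motifs. The first, the 2-unit motif, is GAANNTTC or TTCNNGAA. The second, the 3-unit motif, is the first followed after any NN by another unit in alternation, so each of its matches also contains the first. The 3-unit motif was found for 2 of 9 members (Hsph1 and Hspe1), against 0.613% of the 12063 tested genes with a window. The 2-unit motif was found for 8 of 9 (all but Dnajb1), against 15.2%; the near-identical windows of Hspa1a and Hspa1b count there as 2. CCAAT was found for 5 members, against 42.9% of tested genes, and TATAAA for 0, against 7.46%. The 130 bases before the transcript start of a window are shown for 4 members, with the matches in capitals: the near-identical HSP70 pair, the member with overlapping 3-unit matches, and Dnaja4, which had the largest difference between cell types and has 2 separate sites in its second window and none in its first.
Hspa1a: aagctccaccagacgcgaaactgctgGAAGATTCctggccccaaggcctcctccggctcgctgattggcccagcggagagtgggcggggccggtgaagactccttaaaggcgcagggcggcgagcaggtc
Hspa1b: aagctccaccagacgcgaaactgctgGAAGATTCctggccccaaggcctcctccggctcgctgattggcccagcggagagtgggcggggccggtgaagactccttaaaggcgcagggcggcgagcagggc
Hspe1: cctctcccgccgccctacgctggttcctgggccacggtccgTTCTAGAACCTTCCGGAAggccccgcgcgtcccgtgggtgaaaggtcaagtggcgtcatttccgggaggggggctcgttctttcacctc
Dnaja4: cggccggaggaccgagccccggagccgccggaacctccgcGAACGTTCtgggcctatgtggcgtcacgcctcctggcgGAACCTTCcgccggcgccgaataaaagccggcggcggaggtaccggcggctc

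These stretches lie at chr17:34972157-34972286 (minus strand) for Hspa1a, chr17:34959239-34959368 (minus strand) for Hspa1b, chr1:55088018-55088147 (plus strand) for Hspe1 and chr9:54699429-54699558 (plus strand) for Dnaja4. The Hspa1a and Hspa1b stretches differ at 1 of 130 bases, and their site starts 104 bases before the transcript start. The Hspe1 match covers 18 bases and starts 89 bases before it. The Dnaja4 sites start 90 and 52 bases before the start of the second window's transcript, which lies inside the annotated gene (chr9:54698848-54716317). For 4 of the other members 1 match is printed with the bases around it, the match again in capitals; Hsph1 and Hspb1 each hold another.
Hsph1: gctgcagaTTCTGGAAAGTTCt
Hspb1: tgggggcaGAACCTTCctggcccc
Dnaja1: agcctctaGAAAATTCtacgaggc
Bag3: tgggaccaGAAGTTTC
The Hsph1 match (chr5:149636287-149636308, minus strand) starts 36 bases after the transcript start of the first window and 15 bases after that of the second, and both starts lie inside the annotated gene. The Bag3 match (chr7:128523617-128523632) starts 42 bases after the transcript start. The Hspb1 match (chr5:135887814-135887837) starts 97 bases before the start and the Dnaja1 match (chr4:40722336-40722359) 124 bases before it. A match describes letters in a window and is no evidence of binding.

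The libraries held 10478956 to 17386042 counts on the 17326 complete gene lines; the other lines are not in these totals or in any share given here. Emcn had 25953 and 25261 counts in wild-type endothelium and 2460 and 2081 in knockout endothelium. Summed over the 10 endothelial markers tested, endothelium had 8991 to 11614 CPM (counts scaled to a common library size, here by TMM) and podocytes 510 to 830. Of the 10 podocyte markers 6 were tested, and they summed to 7915 to 17244 CPM in podocytes and 1275 to 2266 in endothelium. Of the 10 tubule markers 7 were tested, and their summed level was uneven: in endothelium 5040 and 13325 CPM in the wild-type and 2792 and 4944 in the knockout libraries, and in podocytes 3718 and 9185 against 6574 and 7516. None of the tested markers was at 0 in any library. Mitochondrial genes in the endothelial libraries took 13.3% and 26.2% (wild type) against 10.1% and 19.6% (knockout) of counts, and 12.2% to 22.2% in podocytes. In bulk libraries, fewer cells of a type and less RNA per cell cannot be told apart.

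Together the 10 genes took 3.66% and 3.30% of the counts on complete lines in wild-type endothelium (replicates 2 and 3), 2.58% and 3.21% in knockout endothelium, 2.89% and 2.44% in wild-type podocytes and 2.02% and 2.28% in knockout podocytes. The groups of each genotype did not overlap in either cell type on this scale. Hspa1a and Hspa1b made up 70.8% to 85.6% of those counts. Their own share did overlap in endothelium, because knockout replicate 3 (2.75%) stood above wild-type replicate 3 (2.70%). By counts, Hspa1b ranked 3rd to 9th over the libraries among the 16477 genes that passed the filter on low counts, and Hspa1a 6th to 13th.

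**Figure D1:**
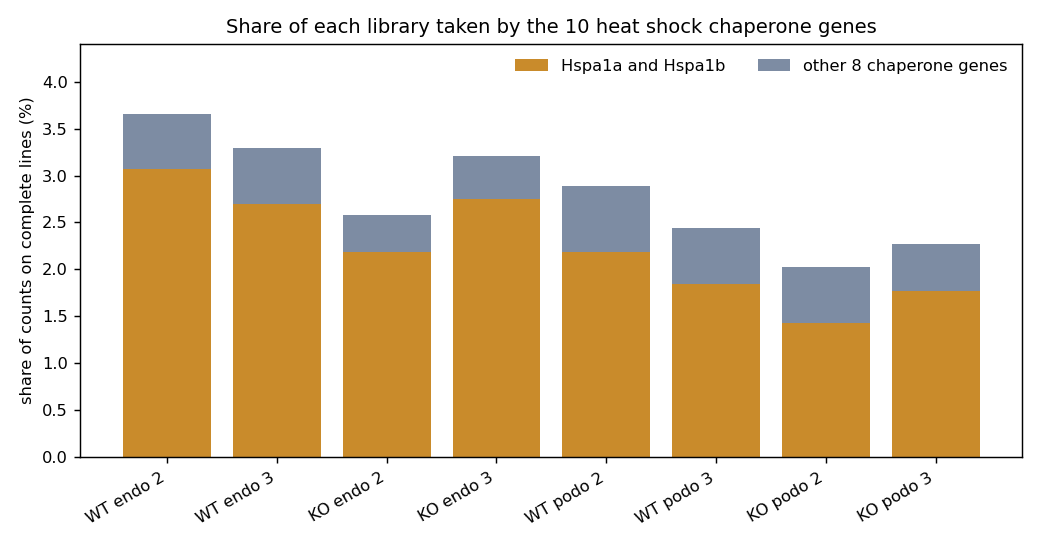
Percent of the counts on complete gene lines in each of the 8 libraries taken by Hspa1a and Hspa1b and by the other 8 heat shock chaperone genes, as stacked bars from 0. Wild-type endothelium holds the highest totals (3.66% and 3.30%) and knockout podocytes the lowest (2.02% and 2.28%), and the HSP70 pair is the larger part of each bar.

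Levels per length of the gene's exons allow a rough comparison between genes. The length pools the exons of all annotated transcripts, 8629 bases for Dnaja1, 7266 for Hsph1 and 1031 for Hspb1. It can exceed the transcript made, which lowers the value. On this scale Hspa1b stood highest in every group, at 6485 CPM per kb in wild-type endothelium, and Hspa1a came next at 4185. Hspb1 (916), Dnajb1 (581) and Hspa8 (389) formed the middle of the order there. Bag3 (135 ± 28), Hspe1 (106 ± 34) and Hsph1 (102 ± 31, SD, n = 2) followed and did not differ beyond their spread. Dnaja1 (59.6 ± 4.9) and Dnaja4 (29.0 ± 3.9) came last. In wild-type podocytes Dnajb1 (857 CPM per kb) stood above Hspb1 (577). The division between Hspa1a and Hspa1b is uncertain: 99.6% of the aligned coding bases are identical, and 58.8% of the 50-base windows of the Hspa1a transcript also occur in Hspa1b. How reads matching both genes were counted is not given in the sources used here. Hspa1a (chr17:34969359-34972156) and Hspa1b (chr17:34956429-34959238) are single-exon genes that lie 10120 bases apart.

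In knockout endothelium all 10 genes had a lower mean than in wild type, which is what the choice of members used. Their log2 fold changes ran from -1.41 to -0.53 with a median of -0.69, beside 0.01 over all 16477 genes tested. Of all genes, 49.7% had a lower estimate and 0.00607% passed as lower at an adjusted p of 0.05 (edgeR's quasi-likelihood test). In 9 of the 10 the knockout group lay wholly under the wild-type group, against 19.7% of all genes, and nothing is read from either count.

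**Figure D2:**
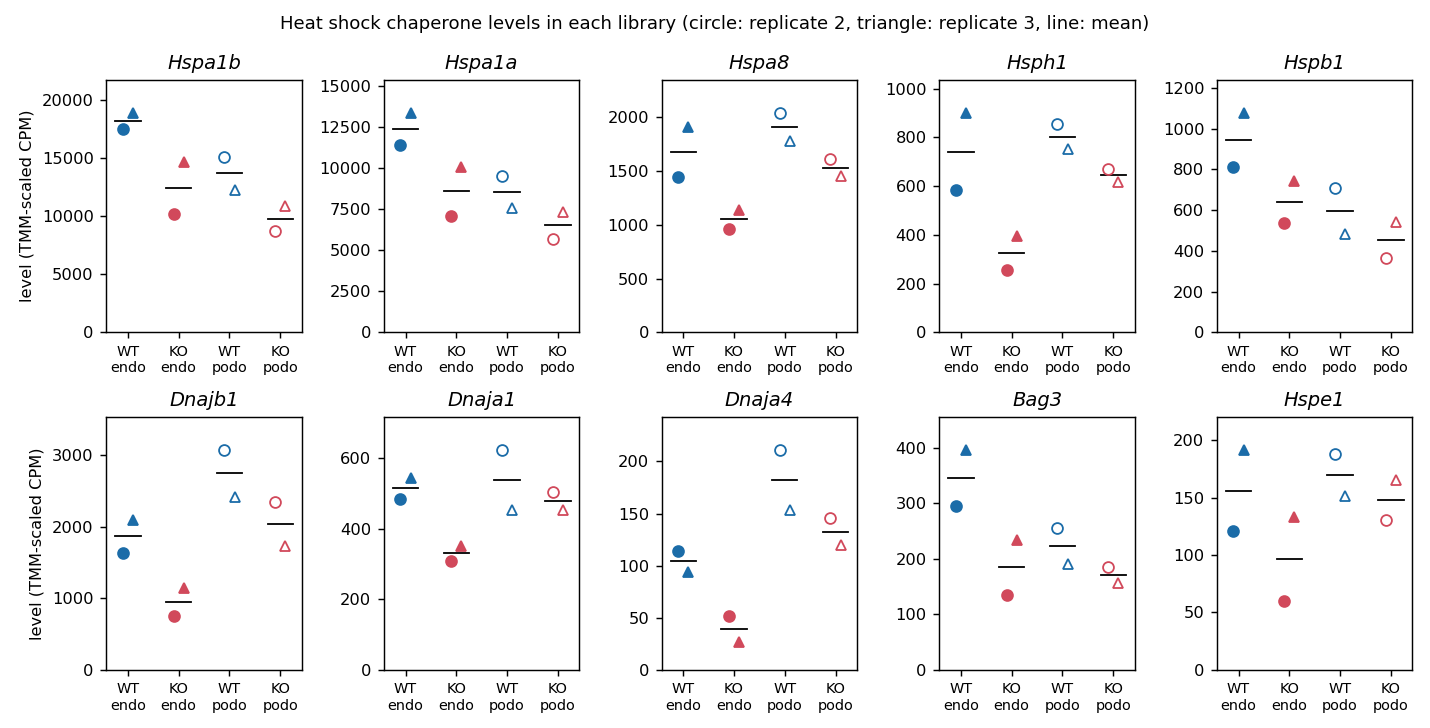
Level of each of the 10 heat shock chaperone genes in each of the 8 libraries, in CPM on a linear axis, with 1 point per library. Colour marks the genotype, and points are filled for endothelium and open for podocytes. Circles are replicate 2, triangles are replicate 3 and lines are group means. The knockout endothelial points lie below the wild-type endothelial points for every gene except Hspe1, and the podocyte points of the genotypes lie closer together.

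Dnaja4 and Hsph1 had the largest endothelial differences. Dnaja4, a J-domain protein of the cytosol, measured 114 and 94.2 CPM in wild-type endothelium and 51.5 and 26.9 CPM in the knockout, a log2 difference of -1.41 (SE 0.32). The groups did not overlap, and the gene was 2.65-fold lower. Hsph1, an HSP110 nucleotide exchange factor at chr5:149616843-149636498, measured 582 and 901 CPM in wild type and 257 and 395 CPM in the knockout, a log2 difference of -1.18 (SE 0.30). The knockout means were 326 ± 98 CPM for Hsph1 and 39.2 ± 17.4 CPM for Dnaja4 (SD, n = 2).

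Dnajb1, the main inducible J-domain partner of HSP70, measured 1632 and 2094 CPM in wild-type and 746 and 1144 CPM in knockout endothelium, a log2 difference of -0.98 (SE 0.32). Bag3, which couples HSP70 to autophagy, measured 294 and 396 CPM against 135 and 234 CPM, a log2 difference of -0.90 (SE 0.30). For both, the groups did not overlap. Dnaja1, a J-domain protein with a farnesyl anchor, measured 484 and 544 CPM against 308 and 352 CPM, a log2 difference of -0.64 (SE 0.25). Its libraries lay close together, with SDs of 42.2 and 31.1 CPM (n = 2 in each group), and the groups did not overlap.

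Hspa8, the HSP70 gene made in all cells, measured 1440 and 1907 CPM in wild-type and 957 and 1138 CPM in knockout endothelium, a log2 difference of -0.68 (SE 0.27). Hspa1b measured 17477 and 18877 CPM against 10131 and 14649 CPM, and Hspa1a 11437 and 13395 CPM against 7078 and 10109 CPM. Their log2 differences were -0.55 (SE 0.36) and -0.53 (SE 0.35), with knockout replicate 3 nearer to the wild-type libraries than replicate 2. The small chaperone Hspb1 measured 810 and 1078 CPM against 539 and 745 CPM, a log2 difference of -0.56 (SE 0.31). Hspe1 was the member whose groups overlapped, at 121 and 191 CPM in wild type against 59.6 and 133 CPM in the knockout. Its log2 difference of -0.70 (SE 0.36) ranged from -1.40 without knockout replicate 3 to -0.24 without knockout replicate 2. Other members depended on knockout replicate 2 or 3 too: without replicate 2 the values were -0.57 for Bag3, -0.32 for Hspa1b, -0.30 for Hspa1a and -0.35 for Hspb1, and without replicate 3 they were -1.36, -0.85, -0.82 and -0.82. Hspb1 stood at -0.34, and Hspe1 at -0.34, without wild-type replicate 3. Hspe1 (chr1:55088148-55091317) overlaps its partner gene Hspd1 in the annotation, so reads of one can be counted for the other.

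Scaling mattered for the size. With plain library sizes in place of TMM, the median of the members was -0.35, but that of all genes moved to 0.33, so the members stood at -0.68 relative to it, beside -0.69 with TMM. All 10 stayed lower with each of the 3 scalings tried. Without TMM the groups of 7 members did not overlap (4.41% of all genes), and Hspa1a, Hspa1b and Hspe1 overlapped. The tubule and mitochondrial levels given above also differed between the endothelial libraries. In knockout endothelium 4 of 7 tubule markers (median -0.98), 5 of 6 podocyte markers (median -0.49) and 1 of 10 endothelial markers (median 0.16) had lower estimates, and their part in the result was not tested.

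**Figure D3:**
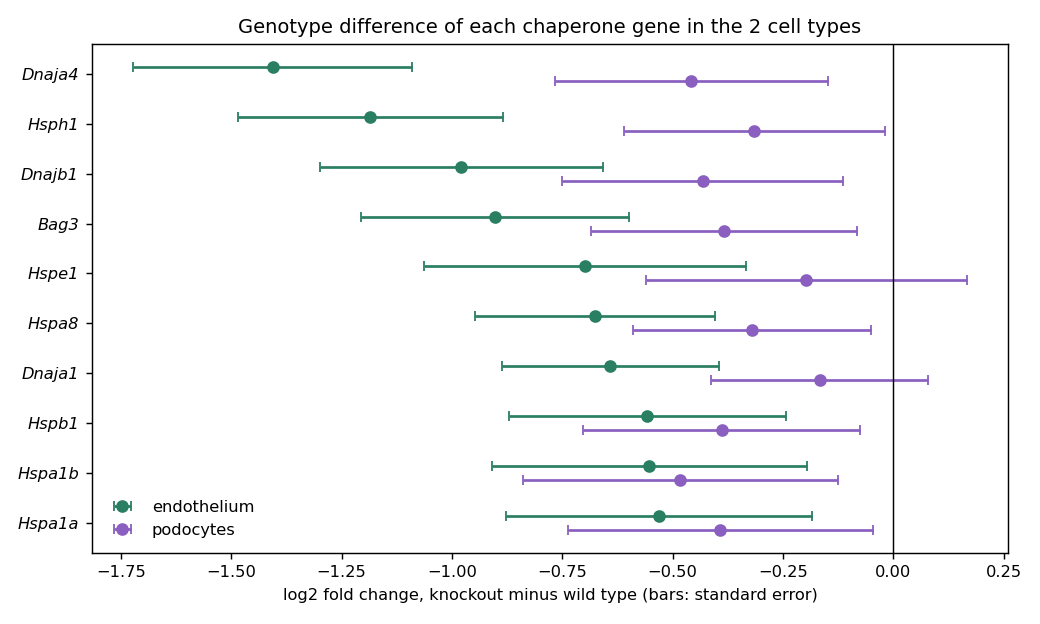
Log2 fold change, knockout minus wild type, of each of the 10 heat shock chaperone genes in endothelium and in podocytes, with bars of 1 SE. The endothelial values were used to choose the genes and run from -1.41 (Dnaja4) to -0.53 (Hspa1a), and the podocyte values run from -0.48 (Hspa1b) to -0.17 (Dnaja1), none of them past an adjusted p of 0.05.

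In podocytes none of the 10 genes passed the test for genotype at an adjusted p of 0.05, against 0.00607% of all genes called lower, and none had an unadjusted p under 0.05, against 4.43% of all genes in either direction (DESeq2 also called 0 of 10). The estimates ran from -0.48 to -0.17 log2 with a median of -0.39, beside 0.02 over all genes. In simulated counts this test called 17.5% of 80 genes changed 2-fold in knockout podocytes. Every member's estimate was smaller than 2-fold, so the absence of calls says little about differences of this size. All 10 estimates were below 0, against 47.8% of all genes, and in 7 of 10 the groups did not overlap with the knockout lower, against 16%. That count was 3 with plain library sizes, against 10.1% of all genes, and 5 with DESeq2's size factors, against 14.8%. The members share libraries, so these counts are not 10 independent results. The sums of the tubule markers and the mitochondrial shares given above were uneven here too. In knockout podocytes 6 of 6 podocyte markers (median -0.59), 7 of 10 endothelial markers (median -0.22) and 1 of 7 tubule markers (median 0.69) had lower estimates. The part of these levels was not tested.

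Among the genes, Hspa1b measured 15104 and 12242 CPM in wild-type and 8748 and 10819 CPM in knockout podocytes, a log2 difference of -0.48 (SE 0.36, adjusted p = 0.978 by edgeR's quasi-likelihood test). The 95% interval ran from -1.27 to 0.31, which includes 0 although the groups did not overlap. Dnajb1 measured 3070 and 2420 CPM against 2345 and 1726 CPM, an interval of -1.14 to 0.27. Dnaja4 measured 211 and 153 CPM against 145 and 120 CPM, an interval of -1.14 to 0.23. Hsph1 measured 853 and 751 CPM against 671 and 619 CPM, an interval of -0.97 to 0.34.

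Hspa1a measured 9554 and 7595 CPM against 5720 and 7353 CPM in podocytes, and Bag3 256 and 190 CPM against 186 and 156 CPM. Hspa8 measured 2039 and 1779 CPM against 1611 and 1447 CPM. In these 3 the groups did not overlap. The overlapping members were Hspb1 (707 and 483 CPM against 365 and 544 CPM), Hspe1 (188 and 151 CPM against 130 and 166 CPM) and Dnaja1 (622 and 451.4 CPM against 505 and 451.3 CPM). Dnaja1 had the smallest estimate, -0.17, and it turned to 0.105 without wild-type replicate 2. Leaving out 1 library in turn gave ranges of -0.65 to -0.31 for Hspa1b, -0.58 to -0.20 for Hspa1a and -0.42 to -0.20 for Hspa8. For Dnaja4 the range was -0.67 to -0.19, for Dnajb1 -0.67 to -0.225 and for Hsph1 -0.41 to -0.20. For Bag3 it was -0.58 to -0.13, for Hspb1 -0.71 to -0.075 and for Hspe1 -0.38 to -0.013. In these 9 the value nearest 0 came without wild-type replicate 2. Without that library the median over the members was -0.19. Values for endothelium and podocytes stood at medians of -0.69 and -0.39, and the difference between these effects was -0.49 in the median, beside -0.03 over all genes. Because the endothelial values chose the genes, this difference was not tested. It was -0.87 (SE 0.42) for Hsph1 and -0.95 (SE 0.44) for Dnaja4, and -0.14 for Hspa1a and -0.07 for Hspa1b. The median was -0.27 with plain library sizes, -0.22 without wild-type endothelium replicate 3, -0.21 without knockout endothelium replicate 2 and -0.30 without wild-type podocytes replicate 3.

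Between the cell types, none of the 10 members passed the test in wild type alone. This comparison was added after seeing the data because it leaves out the knockout endothelium whose low values chose the genes. The choice set knockout against wild-type endothelium, so the wild-type values entered it too, and this comparison is not independent of it. In wild type alone 1481 of the 16477 genes tested were called, in either direction. The smallest unadjusted p of a member there was that of Dnaja4 (0.0257 by edgeR's quasi-likelihood test), and the members' median difference was -0.09. Averaged over the genotypes, 2 members passed and both were higher in podocytes, against 11.1% of all genes called lower in endothelium and 7.19% called higher. That average holds the knockout endothelium, so it is no independent support. Dnaja4 was 2.43-fold higher in podocytes in the average, a log2 difference of -1.28 for endothelium minus podocytes (SE 0.22, adjusted p = 0.00217 by edgeR's quasi-likelihood test). Its 4 podocyte libraries, at 120 to 211 CPM, lay above its 4 endothelial libraries, at 26.9 to 114 CPM (12.3% of all genes stood apart this way). Its difference was -0.81 (SE 0.31, adjusted p = 0.171 by edgeR) in wild type alone and -1.75 (SE 0.32) in knockout alone. Dnajb1 was 1.78-fold higher in podocytes in the average, with a log2 difference of -0.83 (SE 0.23, adjusted p = 0.0270 by edgeR). Its libraries overlapped, at 1726 to 3070 CPM in podocytes and 746 to 2094 CPM in endothelium. Its difference was -0.56 (SE 0.32, adjusted p = 0.399) in wild type alone and -1.11 (SE 0.32) in knockout alone. The Dnajb1 call was lost under 7 of 18 alternatives: in wild type alone, with DESeq2's size factors (adjusted p = 0.0521), with plain library sizes (adjusted p = 0.0502) and when replicate 2 of wild-type endothelium (0.0995), knockout endothelium (0.109), wild-type podocytes (0.125) or knockout podocytes (0.0819) was left out.

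**Figure D4:**
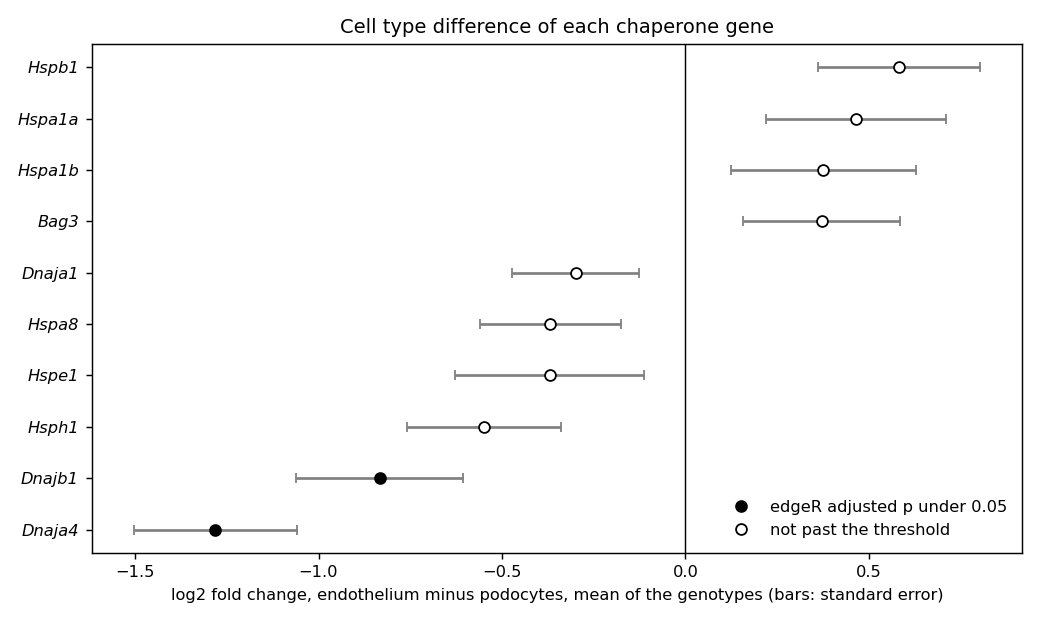
Log2 difference, endothelium minus podocytes averaged over the genotypes, for each of the 10 heat shock chaperone genes, with bars of the SE. The values of Dnaja4 (-1.28) and Dnajb1 (-0.83) passed an adjusted p of 0.05, and the other members, from Hsph1 (-0.55) to Hspb1 (0.58), did not. The average holds the endothelial libraries that chose the genes, so these calls are no independent support. In wild type alone no member passed.

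In the average the other 8 members did not pass. That average holds the endothelial libraries that chose the genes, so its p-values are no independent support for any member. Hsph1 stood at -0.55 (SE 0.21, adjusted p = 0.104 by edgeR) and Hspb1 at 0.58 (SE 0.22, adjusted p = 0.101), with unadjusted p-values of 0.0254 and 0.0245. At an unadjusted p under 0.05 there were 3 members lower and 1 higher in endothelium, against 17.7% and 12.3% of all genes. Hspb1 passed with plain library sizes (0.74, adjusted p = 0.0338) and among genes with a mean of at least 5 CPM (0.68, adjusted p = 0.047), and Hsph1 passed with a replicate block (adjusted p = 0.0481). Hspa1a (0.46, interval -0.08 to 1.01) and Hspa1b (0.38, interval -0.18 to 0.93) had positive estimates, and Hspa8 (-0.37), Hspe1 (-0.37) and Dnaja1 (-0.30) negative ones. Bag3 stood at 0.37. The adjusted p-values of these 6 genes ran from 0.232 to 0.384. Leaving out knockout endothelium replicate 3 moved Bag3 to 0.14, Hspa1b to 0.23 and Hspe1 to -0.72. Hspe1 was -0.14 without knockout endothelium replicate 2, -0.23 without wild-type endothelium replicate 2 and -0.56 without wild-type endothelium replicate 3, and Dnaja1 was -0.16 without wild-type podocytes replicate 2. In wild type alone Bag3 stood at 0.63, Hspa8 at -0.19, Hspe1 at -0.12, Hsph1 at -0.11 and Dnaja1 at -0.06. The members split 4 higher and 6 lower in endothelium (49.9% of all genes were lower), with a median of -0.33 beside 0.00 for all genes. The median was -0.17 with plain library sizes, -0.20 without knockout endothelium replicate 2 and -0.22 without wild-type podocytes replicate 2.

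Members differed in how far they moved together over the 8 libraries. Pearson's r of each member's log2 CPM with the mean of the other 9 was 0.93 for Hspa8, 0.92 for Hsph1 and 0.92 for Dnaja1. It was 0.83 for Hspe1, 0.81 for Dnajb1 and 0.71 for Bag3, and lower for Hspa1b (0.56), Dnaja4 (0.49), Hspa1a (0.46) and Hspb1 (0.36). These values are descriptions over 8 libraries that share group differences. The mean log2 CPM of the members in endothelium was 9.85 and 10.16 for the wild type and 8.96 and 9.38 for the knockout, and 10.14 and 9.79 in wild-type and 9.61 and 9.62 in knockout podocytes. The 5 other genes most like that mean among 9948 ranked were Elp5 (r = 0.98), Spsb3 (0.98), Dbt (0.97), Pfdn2 (0.97) and Dynlt1f (0.96). Their log2 differences in endothelium ran from -0.78 (Dbt) to -0.38 (Pfdn2), and in podocytes from -0.48 (Dbt) to -0.12 (Pfdn2).

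The wider chaperone network was described with 6 lists, of which 72 genes were tested. None of the 72 passed for genotype in endothelium or podocytes, with edgeR or with DESeq2. In endothelium 67 of 72 had a lower estimate (median -0.28, against 49.7% of all genes lower), 36 had non-overlapping groups with the knockout lower, against 19.7%, and 7 had an unadjusted p under 0.05, against 2.88% of all genes in that direction. In podocytes 53 of 72 had a lower estimate (median -0.13, against 47.8% of all genes lower), 28 had non-overlapping groups with the knockout lower, against 16%, and 3 had an unadjusted p under 0.05, against 1.63%. The HSF1 gene itself, Hsf1, measured 59.0 and 68.2 CPM in the wild-type and 66.0 and 52.1 CPM in the knockout endothelial libraries, a log2 difference of -0.11 (SE 0.22, adjusted p = 0.882 by edgeR). Its libraries overlapped, and in podocytes it stood at -0.11 as well. Hsf2, a related factor, stood at 0.19 (SE 0.35).

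Among the 8 regulators the medians were -0.18 in endothelium and -0.02 in podocytes, with Hsbp1l1 at -0.97 and Hsbp1 at -0.35 in endothelium and Ier5 at 0.27 in podocytes. Of 39 cytosolic chaperones 26 were tested, with medians of -0.22 and -0.06. Dnajb4, a J-domain relative of Dnajb1, measured 137 and 143 CPM in wild-type and 60.4 and 85.5 CPM in knockout endothelium (-0.94, SE 0.24, adjusted p = 0.716 by edgeR). Bag1, an HSP70 exchange factor, stood at -1.49 (SE 0.41), with wild-type libraries at 296 and 133 CPM and knockout libraries at 103 and 49.5 CPM. Hspa4, another HSP110 protein, stood at -0.32, and Stip1, which links HSP70 to HSP90, at -0.31. In podocytes the smallest p-values of this list were those of Hspa1l (-0.64) and Hspa4l (-0.35), neither past the threshold.

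Of 12 mitochondrial chaperones and proteases 9 were tested, with medians of -0.37 in endothelium and -0.08 in podocytes. Hspd1, the chamber that Hspe1 closes, measured 204 and 266 CPM in wild-type and 120 and 176 CPM in knockout endothelium (-0.66, SE 0.25, adjusted p = 0.716 by edgeR), and -0.07 in podocytes. Trap1 stood at -0.49 in endothelium, Hscb at 0.42 and Htra2 at -0.20 in podocytes. Of 20 endoplasmic reticulum chaperones 17 were tested, with medians of -0.18 in endothelium and -0.37 in podocytes, where 15 of 17 were lower. Hyou1, the HSP110 relative of that compartment, measured 152 and 112 CPM in wild-type and 79.0 and 68.0 CPM in knockout podocytes (-0.85, SE 0.26, adjusted p = 0.978 by edgeR), and Sdf2l1 stood at -0.62. In endothelium Dnajb9 (-0.46) and Dnajc3 (-0.41) had the smallest p-values of the list. Of the 8 chaperonin ring subunits only Tcp1 was tested, at -0.16 and -0.13. The 11 tested of 12 other stress genes had medians of -0.56 and -0.37, with Gadd45b (-0.56) and Hmox1 (-0.54) in endothelium and Gadd45a (-0.47) and Hmox1 (-0.38) in podocytes.

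**Figure D5:**
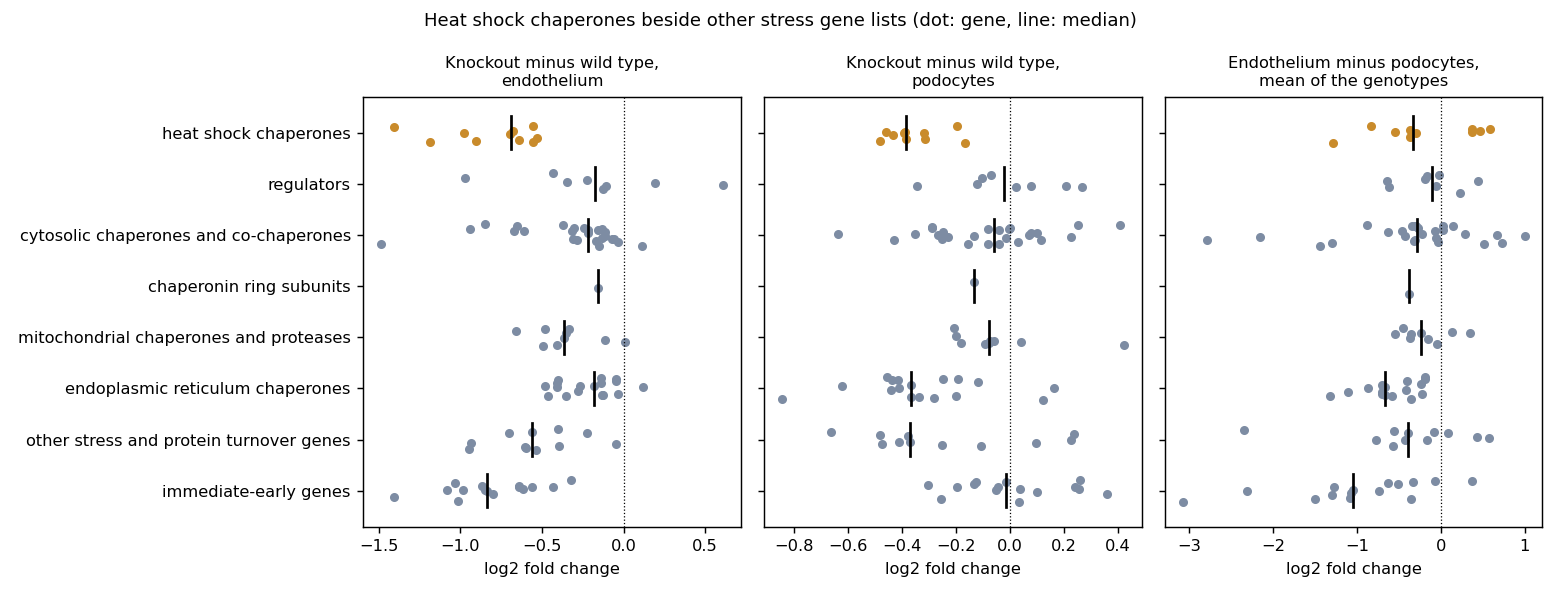
Log2 difference of each of the 10 heat shock chaperones and of each gene in the lists of related genes (dots), with list medians as lines. The panels are knockout minus wild type in endothelium and in podocytes, and endothelium minus podocytes. In knockout endothelium the immediate-early genes (-0.84) and the members (-0.69) have the lowest medians, and between cell types the immediate-early genes (-1.04) and the endoplasmic reticulum chaperones (-0.66).

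Immediate-early genes, the first transcripts made after a stimulus, are also known to rise during tissue digestion. Of the 16 genes 15 were tested, and their endothelial median was -0.84, with 15 of 15 lower (49.7% of all genes). The groups of 14 did not overlap (19.7% of all genes), 7 had an unadjusted p under 0.05 (2.88%), and none passed adjustment. Fos stood at -0.84 (SE 0.32), Klf6 at -1.08 and Atf3 at -1.01. In podocytes the median was -0.02, with 8 lower and 7 higher, Ier2 at 0.36 and Ier3 at -0.30. The mean log2 CPM of the list in endothelium was 8.53 and 8.94 for the wild type and 7.87 and 8.01 for the knockout. In podocytes it was 9.43 and 9.19 for the wild type and 9.70 and 8.80 for the knockout, so the knockout libraries lay on either side of the wild type. Their part in the result was not tested.

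Between cell types, the 72 genes gave 4 calls higher and 17 lower in endothelium, with a median of -0.32, where 7.19% of all genes were called higher and 11.1% lower. The total of 21 was 10 in wild type alone, where calls over all genes fell too, to 1481 from 3020 in the average. Hspb8, the small chaperone that partners Bag3, measured 203 and 169 CPM in wild-type podocytes and 141 and 164 CPM in the knockout, against 17.2 to 42.9 CPM in endothelium (-2.79, SE 0.26, adjusted p = 3.11e-05 by edgeR). Hspb2, another small chaperone, was also lower in endothelium (-2.16). Bag5, whose product regulates HSP70, was higher in endothelium (1.01, SE 0.15, adjusted p = 0.000835), as was Hspa2 (0.73, adjusted p = 0.0450). The endoplasmic reticulum list had 17 of 17 genes lower in endothelium and 9 called (11.1% of all genes), led by Hyou1 (-1.32) and Hspa5 (-1.11, SE 0.21, adjusted p = 0.00339), its main HSP70. Of the other stress genes, Txnip was higher in endothelium (0.58) and Gadd45a (-2.35) and Gadd45b (-0.77) lower, each past the threshold. The immediate-early list had 9 of 15 genes called lower in endothelium (11.1% of all genes), with Fosb at -2.31 and Fos at -1.09. Jund stood at -3.08 (SE 0.65), and its podocyte libraries were 354 and 372 CPM in replicate 2 but 66.4 and 43.4 CPM in replicate 3. In the remaining lists nothing passed, with Hspd1 at -0.55 (adjusted p = 0.0587) and Hspa9 at -0.45, Tcp1 at -0.38, and Hsbp1l1 at -0.62, Hsf2 at 0.44 and Hsf1 at -0.16.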

How the data were processed

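Polyadenylated RNA of sorted mouse kidney cells was sequenced from TruSeq libraries, per the labels' protocols. The deposited file is a table of raw counts, 1 row per gene and 1 column per library, per the file headers. The build was mm10, per the submitters' processing notes, which also list DESeq2. The aligner, counter, annotation and use of strand are not given in the sources used here. Of 22533 gene lines, 17326 held all 8 counts. The other 5207 (23.1%) have a comma in the description and fewer counts, and are not analysed here; they include Hsp90aa1, Hsp90ab1, Cryab, Chordc1 and most chaperonin subunits. In 3 columns these short lines leave empty cells, which is why those columns of the deposited counts were recorded as another kind of value.

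Counts were analysed with edgeR 4.0.16 in R 4.3.3: filterByExpr by the 4 groups (16477 genes), TMM scaling, 1 mean per group over all 8 libraries, quasi-likelihood F tests and Benjamini-Hochberg adjustment over all genes. Log2 CPM used a prior count of 2, and each SE is the log2 fold change over the square root of F. The fit was tested on simulated data. DESeq2 1.42.0, other scalings and filters, a replicate block and leaving out each library were alternatives. Promoter windows are RefSeq's, of GRCm38.p6, which is mm10, and were matched by Entrez gene ID.

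The members and lists were chosen with earlier results of these data known. Besides the members, the text names fixed genes of the heat shock pathway and, for each list and contrast, up to 2 genes per direction past the threshold by size, or 2 by smallest p where none passed. It also names the 5 genes of at least 5 mean CPM most correlated with the members' mean.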

Additional observations from a re-analysis of the deposited data

How the results depend on the processing

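Over the alternatives, 485 of the members' own values stayed the same, 13 moved, 1 changed sign, 3 became called and 8 lost their call. In podocytes and between cell types, the same meant an equal direction and call, whatever the size. For the endothelial genotype difference, which had no call, it meant a size within the replicate spread, and the 13 moved beyond that. The sign change was Dnaja1 in podocytes, which ran from -0.384 without wild-type replicate 3 to 0.105 without wild-type replicate 2. The 3 gained calls were Hspb1 between cell types under plain library sizes and among genes of at least 5 mean CPM, and Hsph1 under the replicate block. Of the 8 lost calls 7 were of Dnajb1 and 1 of Dnaja4. No member was called for genotype in podocytes under any alternative.

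A comparison in wild type alone was chosen after seeing the data, because the knockout endothelium entered the choice of members. The wild-type endothelium entered it too, so this comparison is not independent of the choice. In it 0 members were called between cell types, and their median was -0.088. It called 10 related genes and 1481 of all genes. The averaged comparison rests on more libraries than this one. Members called in it numbered 2, against 1 with DESeq2's size factors and 1 to 2 over the leave-one-out fits. Related genes called there numbered 21, against 10 to 20 when 1 library was left out. The members' median log2 difference in endothelium, -0.69, was -0.35 with plain library sizes and -0.94 to -0.53 without 1 library. In podocytes it was -0.39, and -0.57 to -0.19 without 1 library. The difference of the genotype effects, -0.49, was -0.27 with plain library sizes and -0.69 to -0.21 without 1 library. Over all genes, 1 gene was called for genotype in endothelium and 1 in podocytes, against 4 and 8 with DESeq2 and 0 and 0 with plain library sizes or at least 5 mean CPM; in podocytes it was 0 when only the 4 podocyte libraries were fitted. Plain library sizes gave 1288 genes higher and 1059 lower in endothelium than in podocytes, beside 1184 and 1836 with TMM. The cause of these shifts was not tested.

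Whether equal replicate numbers mark a shared animal is not given. Deviations of same-numbered libraries correlated across genes at 0.19 (endothelium of both genotypes), 0.16 (podocytes), -0.13 (wild-type cell types) and 0.11 (knockout cell types). With the replicate block 3 members were called between cell types (Hsph1 joined, adjusted p = 0.0481 by edgeR), 3435 of all genes were called beside 3020, and the members' medians were -0.70 in endothelium and -0.40 in podocytes. A block with the podocyte numbers swapped, chosen after seeing the data, called 2 members and 2912 genes.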
